A study of Mus musculus with 6 samples.

Results

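Hepatocyte transcription factors are the DNA-binding proteins that switch on the genes of the liver parenchyma. The 8 genes described here were Hnf4a, Foxa1, Foxa2, Foxa3, Cebpa, Nr1h4, Onecut1, and Prox1, taken from the tables by their symbols. They were 8 of the 26167 genes in the tables, and all 8 were among the 16513 genes with enough reads to test (a count of 10 or more in 3 or more tumors). The tumors were grown from Hepa1-6, a mouse hepatoma cell line, injected under the skin of female C57BL/6J mice aged 6 to 8 weeks. The treated mice received the kinase inhibitor sorafenib (Sora) at 10 mg/kg, injected ip on 4 occasions (days 9, 11, 13, 15 after tumor cell injection), and what the control mice received is not given in the sources used here. RNA of whole tumor tissue was sequenced, with 1 library from each of 3 control tumors (numbered 1, 3, and 4) and 3 Sora-treated tumors (numbered 2, 3, and 4).

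In the liver these factors form a network in which each binds the control regions of several others. FOXA proteins open chromatin early in development, HNF4A and C/EBPα then drive genes of secretion and metabolism, and FXR (encoded by Nr1h4) senses bile acids. ONECUT1 and PROX1 act when the bile duct and hepatocyte lineages separate, and PROX1 also defines lymphatic endothelium. Hepatoma cells often keep only a portion of this program.

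Total counts were 31073830 to 36205814 per tumor, and the members had between 94 (Nr1h4) and 5183 (Hnf4a) reads in a tumor. Of 12 hepatoma cell markers, 12 were above 0 in every tumor, with Serpina1a, a gene of mature hepatocytes, under 1 FPKM throughout. FPKM is the count divided by gene length and total count, so it allows levels of different genes to be compared. The summed FPKM of these markers was 3233 to 3966 in control tumors and 3334 to 3596 in Sora-treated tumors. Every tumor therefore held hepatoma RNA, and the summed levels of the groups overlapped. Within the list, 1 marker rose (Apoa1), 2 fell (Alb and Ttr), and 8 tested markers did not pass. The summed FPKM of 8 fibroblast and of 8 leukocyte markers was lower without overlap in Sora-treated tumors. In control tumors the sums were 2072 to 2169 and 287 to 319 FPKM. In Sora-treated tumors they were 1588 to 1916 and 243 to 279 FPKM. In counts scaled to library size, 4 fibroblast and 3 leukocyte markers were lower without overlap, and 1 leukocyte marker (Itgam) was higher. Log2 fold changes were above 0 for Dcn of fibroblasts (0.03) and for Itgam (0.24) and Ncr1 (0.45) of leukocytes. All of these markers were above 0 in every tumor, with Cd79a of B cells under 1 FPKM. By the edgeR test used here, 1 (Postn, of fibroblasts) passed, with an adjusted p of 0.097 without Sora-treated tumor 4. A second program, DESeq2, called 4 of the fibroblast and 2 of the leukocyte markers lower and 0 higher. Their part in the results for the members was not tested. In bulk tissue, fewer cells of a type and less RNA per cell cannot be told apart. Beyond naming 1 sample per tumor, the labels do not say how separate the animals and libraries were, so p-values measure the spread among these samples.

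Hnf4a, the nuclear receptor at the center of the network, was the member that changed. It was up-regulated 1.74-fold (95% interval 1.44 to 2.10) in Sora-treated tumors. For Foxa2, Foxa3, Cebpa, and Nr1h4 the values of the groups overlapped, and none of them passed the test. Foxa1 and Prox1 had lower values and Onecut1 higher values in Sora-treated tumors, each with an unadjusted p under the threshold and an adjusted p above it.

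Of the 8 members, 1 passed an adjusted p under 0.05 in the higher direction and 0 in the lower direction (edgeR, adjustment over all genes tested). Over all genes tested, 1.94% passed in the higher direction and 1.34% in the lower direction. DESeq2, which the study used, also called 1 member higher and 0 lower, where it called 4% of the 15490 genes with an adjusted p higher and 3.71% lower. No fold limit was applied here, whereas the study also required a change above 2-fold, which Hnf4a did not reach (1.74-fold). Fold changes are those of edgeR throughout. At an unadjusted p under 0.05, 2 members were higher and 2 lower, where 8.53% and 8.69% of all genes were. The values of the groups, scaled as CPM (counts scaled to a common library size), did not overlap for 2 members with Sora higher and 2 with Sora lower. Over all genes tested, 10.6% separated with Sora higher and 11.6% with Sora lower. The median log2 fold change of the members was 0.08, and the members were split evenly, with 4 above 0 and 4 below.

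**Figure D1:**
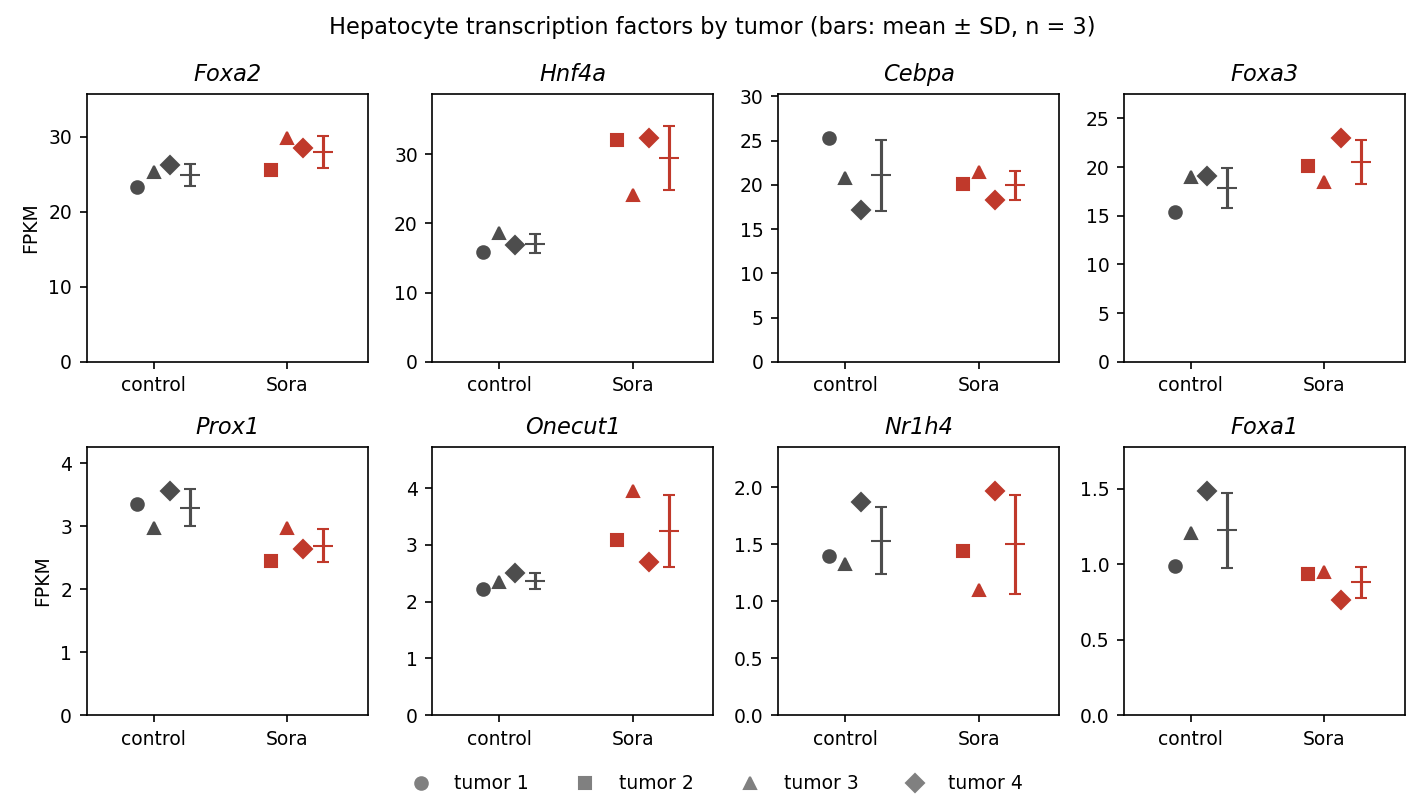
FPKM of each of the 8 genes (y axes from 0, a separate scale for each gene) in the 3 control tumors (gray) and the 3 Sora-treated tumors (red), with bars for the mean ± SD. Symbols give the tumor number within its group and are not used to pair tumors. Hnf4a sits at 15.8 to 18.6 in control tumors and at 24.0 to 32.3 in Sora-treated tumors, and the 2 groups overlap for Foxa2, Foxa3, Cebpa, Nr1h4, and, at 2.98, Prox1.

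Hnf4a lies on chromosome 2, from 163506811 to 163572907 in the GRCm38.p6 assembly. It is read from an upstream and a downstream start 40298 bases apart. The adult hepatocyte uses the downstream start, the pancreas and the fetal liver also use the upstream start, and the isoforms differ in their first exon. The deposited values are per gene, so they do not tell the starts apart. The 250 bases before each start are shown because Hnf4a was the member that rose, with matches to the motifs given below in capitals (RefSeq, GRCm38.p6, written 5′ to 3′ on the strand of the gene).
Hnf4a upstream start (chr2:163506607-163506856, plus strand): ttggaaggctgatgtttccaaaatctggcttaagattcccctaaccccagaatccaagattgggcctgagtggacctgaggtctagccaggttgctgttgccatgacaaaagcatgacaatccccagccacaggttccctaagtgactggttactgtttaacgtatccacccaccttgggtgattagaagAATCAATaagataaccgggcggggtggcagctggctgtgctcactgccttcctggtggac
Hnf4a downstream start (chr2:163546905-163547154, plus strand): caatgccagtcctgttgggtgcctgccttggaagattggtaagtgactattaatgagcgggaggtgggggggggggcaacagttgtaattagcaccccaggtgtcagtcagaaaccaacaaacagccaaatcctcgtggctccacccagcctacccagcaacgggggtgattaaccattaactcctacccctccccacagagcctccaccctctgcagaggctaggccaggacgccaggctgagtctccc
The upstream window held the letters AATCAAT, first base 60 bases before the start. They are the reverse strand of ATTGATT, a core of sites bound by ONECUT proteins, and ATTGATT or ATCGATT was found on either strand in 2.99% of 32851 windows of this length. The downstream window held none of the motifs searched. A match in letters is a description and does not show binding.

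The Hnf4a level was 15.8, 18.6, and 16.8 FPKM in control tumors 1, 3, and 4. In Sora-treated tumors 2, 3, and 4 it was 32.0, 24.0, and 32.3 FPKM. All 3 treated tumors were above all 3 control tumors, with Sora-treated tumor 3 the nearest to them. The group values were 17.1 ± 1.39 FPKM (SD, n = 3) and 29.4 ± 4.68 FPKM (SD, n = 3). The log2 fold change was 0.80 (SE 0.12), with an adjusted p of 0.013 by the edgeR quasi-likelihood test. The log2 fold change was 0.70 to 0.93 when each tumor was left out in turn, and the call was lost in 2 of these 6 fits. Without control tumor 4 the adjusted p was 0.051 with a log2 fold change of 0.78, and without Sora-treated tumor 4 it was 0.082 with a log2 fold change of 0.70. Leaving out Sora-treated tumor 4 also left few calls among all genes, 0.0245% of 16319 in the higher direction and 0.00613% in the lower direction. The counts of that tumor were recovered from its FPKM, since the count table used here holds the other 5 tumors. Hnf4aos, an antisense gene at this locus, had 1 to 2 reads in each tumor and shared no exon bases with Hnf4a in the GENCODE M21 annotation.

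Hnf4a was also set against other genes of the same tumor, which removes the scaling between tumors. The log2 ratio of Hnf4a to Foxa2 was -0.55 ± 0.10 (SD, n = 3) in control tumors and 0.06 ± 0.33 (SD, n = 3) in Sora-treated tumors, so Hnf4a went from below the level of Foxa2 to about equal to it. The log2 ratio rose by 0.47 relative to Krt18, a keratin of hepatic epithelium, and by 0.85 relative to Afp, the fetal serum protein made by hepatoma cells. These 3 ratios were chosen after the values were seen and carry the difference of Hnf4a itself. They are therefore given as a description, and their exact permutation p of 0.1 each is not evidence of a change. In each, the groups did not overlap. Krt18, Afp, and Foxa2 did not pass the test themselves, with log2 fold changes of 0.33, -0.09, and 0.18.

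**Figure D2:**
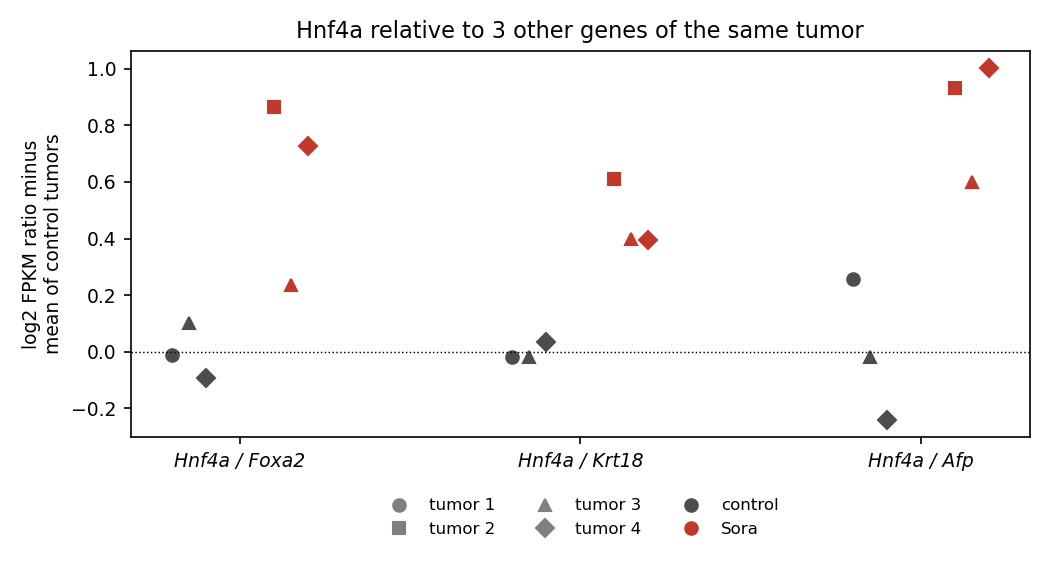
Log2 ratio of the FPKM of Hnf4a to that of Foxa2, Krt18, and Afp in each tumor, chosen after the values were seen, with the mean of the 3 control tumors set to 0 on the y axis. Gray points are control tumors, red points are Sora-treated tumors, and symbols give the tumor number within its group. In all 3 ratios the Sora-treated tumors lie above the control tumors, with mean differences of 0.61, 0.47, and 0.85.

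The paralog Hnf4g was under 1 FPKM in every tumor (0.195 ± 0.0757 and 0.162 ± 0.0591 FPKM, SD, n = 3 each), so HNF4 transcripts were almost entirely from Hnf4a. The log2 ratio of Hnf4a to Hnf4g was 6.52 ± 0.42 (SD, n = 3) in control tumors and 7.55 ± 0.53 (SD, n = 3) in Sora-treated tumors, with no overlap. The exact two-sided permutation p was 0.1, the smallest that 3 tumors against 3 can give (adjusted p = 0.18 over 9 ratios and shares). These 9 include the 3 ratios chosen after the values were seen, so this adjusted p does not rest on planned values alone. The log2 fold change of Hnf4g itself was -0.27 (edgeR adjusted p = 0.81).

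The genes whose log2 CPM followed Hnf4a most closely over the 6 tumors were Areg (Pearson r = 0.999), Csrnp1 (0.998), and 2810025M15Rik (0.998), of 14112 genes compared, 22 of which had r above 0.99. Areg encodes amphiregulin, a ligand of the EGF receptor, and Csrnp1 a nuclear protein induced by AXIN1. Areg was at 11.2, 15.8, and 13.4 FPKM in control tumors 1, 3, and 4 and at 54.8, 27.6, and 57.3 FPKM in Sora-treated tumors 2, 3, and 4. As for Hnf4a, Sora-treated tumor 3 was the lowest of the treated tumors. With 6 tumors and a difference between groups, many genes reach such a likeness, and the values are given as a description.

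The FOXA genes are pioneer factors that open chromatin at liver enhancers. Foxa2 (chromosome 2, 148042877 to 148046969) was the most abundant, at 23.3, 25.3, and 26.2 FPKM in control tumors 1, 3, and 4 and 25.6, 29.8, and 28.5 FPKM in Sora-treated tumors 2, 3, and 4. The groups overlapped, and the log2 fold change was 0.18 (95% interval -0.02 to 0.37, edgeR adjusted p = 0.34). Foxa3 (chromosome 7, 19013283 to 19023539), the member most tied to the adult liver, was at 17.8 ± 2.09 and 20.5 ± 2.28 FPKM (SD, n = 3 each), with a log2 fold change of 0.21 (95% interval -0.05 to 0.48). Without control tumor 1 or Sora-treated tumor 4 that of Foxa3 was 0.10, and without control tumor 1 that of Foxa2 was 0.12. Foxa1 (chromosome 12, 57540628 to 57548029), which can act in place of Foxa2 in the liver bud, was the least abundant of all members.

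Foxa1 was at 0.989, 1.21, and 1.48 FPKM in control tumors 1, 3, and 4. In Sora-treated tumors 2, 3, and 4 it was at 0.933, 0.948, and 0.764 FPKM. Every treated tumor was below every control tumor, by as little as 0.989 against 0.948. The log2 fold change was -0.47 (SE 0.20, 95% interval -0.91 to -0.03), with an unadjusted p of 0.038 and an edgeR adjusted p of 0.25, so it did not pass the test. As a share of the summed FPKM of the FOXA genes, Foxa1 made up 2.77% ± 0.355 (SD, n = 3) in control tumors and 1.80% ± 0.290 (SD, n = 3) in Sora-treated tumors (exact permutation p = 0.1). The adjusted p was 0.18 over the same 9 ratios and shares, which include 3 chosen after the values were seen. The share of Foxa2 was 56.7% in both groups, with SDs of 1.68 and 3.40, and that of Foxa3 was 40.5% and 41.5%.

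Cebpa (chromosome 7, 35119293 to 35121928) encodes C/EBPα, a leucine zipper factor that supports hepatocyte metabolism and restrains cell division. It was at 25.3, 20.7, and 17.2 FPKM in control tumors 1, 3, and 4 and at 20.1, 21.4, and 18.2 FPKM in Sora-treated tumors 2, 3, and 4. The Sora-treated tumors lay within the range of the control tumors, and the log2 fold change was -0.07 (95% interval -0.33 to 0.19, edgeR adjusted p = 0.82). Control tumor 1 set the sign, which became 0.063 without it. That tumor also had the highest sum of 9 keratinocyte and skin markers, 494 FPKM against 135 and 156 FPKM in the other control tumors and 302 to 447 FPKM in Sora-treated tumors, and the part of these cells in the level of Cebpa was not tested. Cebpb, the paralog of the acute phase and regeneration, was more abundant, at 61.3 ± 5.60 and 72.7 ± 3.86 FPKM (SD, n = 3 each, log2 fold change 0.26, edgeR adjusted p = 0.16). The log2 ratio of Cebpa to Cebpb was -1.55 ± 0.22 and -1.87 ± 0.18 (SD, n = 3 each, exact permutation p = 0.3).

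Among the other C/EBP genes, Cebpd, Cebpe, Cebpg, and Cebpz did not pass the test, with log2 fold changes of 0.13, -0.06, -0.02, and -0.06. Ddit3 did. It encodes CHOP, which pairs with C/EBP proteins, hinders their binding to usual sites, and is induced by stress of the endoplasmic reticulum. Ddit3 was at 10.9, 15.8, and 11.1 FPKM in control tumors 1, 3, and 4 and at 21.0, 22.6, and 30.7 FPKM in Sora-treated tumors 2, 3, and 4, with no overlap (log2 fold change 0.98, SE 0.18, edgeR adjusted p = 0.021). The adjusted p was 0.065 without control tumor 1, 0.081 without control tumor 4, and 0.10 without Sora-treated tumor 4, with log2 fold changes of 0.78 to 1.21 over the 6 fits that left out 1 tumor.

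Onecut1 (HNF6, chromosome 9, 74861921 to 74889648) is a cut-homeodomain factor of the hepatoblast and bile duct. It was at 2.23, 2.35, and 2.51 FPKM in control tumors 1, 3, and 4 and at 3.09, 3.94, and 2.70 FPKM in Sora-treated tumors 2, 3, and 4. The groups did not overlap, but the gap was narrow, between 2.51 and 2.70, and the edgeR adjusted p was 0.24 (unadjusted p = 0.034, log2 fold change 0.46, 95% interval 0.04 to 0.88). Without Sora-treated tumor 3 the log2 fold change was 0.31. The non-coding gene Gm20649 lies on the same strand and shares 2171 of the 4113 exon bases of Onecut1 in GENCODE M21. It has no row in the tables, so reads of the pair cannot be told apart.

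Onecut2, the paralog with a similar binding site, was up-regulated. It was at 1.76, 1.99, and 1.91 FPKM in control tumors 1, 3, and 4 and at 4.89, 2.94, and 4.60 FPKM in Sora-treated tumors 2, 3, and 4 (log2 fold change 1.15, SE 0.17, edgeR adjusted p = 0.012). Sora-treated tumor 3 was the lowest of the treated tumors for Onecut2 and the highest for Onecut1. Without Sora-treated tumor 4, the adjusted p of Onecut2 was 0.069, and over the fits that left out 1 tumor its log2 fold change was 1.02 to 1.35. The log2 ratio of Onecut1 to Onecut2 was 0.33 ± 0.08 (SD, n = 3) in control tumors and -0.34 ± 0.66 (SD, n = 3) in Sora-treated tumors. The ratio was -0.66 and -0.77 in Sora-treated tumors 2 and 4 and 0.42 in Sora-treated tumor 3, above all control tumors (exact permutation p = 0.4).

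Prox1 (chromosome 1, 190118035 to 190170827) is a homeobox factor of hepatoblasts and of lymphatic endothelium. It was at 3.35, 2.98, and 3.55 FPKM in control tumors 1, 3, and 4 and at 2.46, 2.98, and 2.65 FPKM in Sora-treated tumors 2, 3, and 4. The groups overlapped in FPKM, by less than the rounding of the 2 values at 2.98, and were separate by a narrow margin in CPM. The log2 fold change was -0.28 (SE 0.10, 95% interval -0.50 to -0.06), with an unadjusted p of 0.017 and an edgeR adjusted p of 0.17. The summed FPKM of 7 lymphatic endothelial markers, all above 0 in every tumor and with Reln and Mmrn1 under 1 FPKM throughout, went the other way, from 37.0 to 43.5 in control tumors to 46.3 to 55.9 in Sora-treated tumors. In edgeR, 6 of the 7 had a log2 fold change above 0 and 0 passed, with 3 higher (Flt4, Mmrn1, and Ccl21a) at an unadjusted p under 0.05 and 3 called higher in DESeq2. Sox18, a transcription factor of these cells, had a log2 fold change of -0.23. The part of these cells in the level of Prox1 was not tested. The antisense gene Prox1os shares 133 of 8390 exon bases and had 4 to 10 reads in each tumor.

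Nr1h4 (chromosome 10, 89454234 to 89533645) encodes FXR, the bile acid receptor that limits bile acid synthesis. It was at 1.39, 1.33, and 1.87 FPKM in control tumors 1, 3, and 4 and at 1.44, 1.10, and 1.96 FPKM in Sora-treated tumors 2, 3, and 4. The treated tumors spanned the control range, and the log2 fold change was -0.01 with a wide interval, -0.59 to 0.56. A change of Nr1h4 within these bounds is therefore not excluded in either direction, and what size of change could be called was not tested.

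By the median FPKM over the 6 tumors, the members fell into an abundant and a scarce set. Foxa2 (25.9), Hnf4a (21.3), Cebpa (20.4), and Foxa3 (19.05) formed the first, in which each gene overlapped its neighbors in this order over the tumors, and Foxa2 lay above Foxa3 in every tumor. Prox1 (2.98), Onecut1 (2.61), Nr1h4 (1.42), and Foxa1 (0.969) formed the second, in which Prox1 overlapped Onecut1 and Nr1h4 overlapped Foxa1. In the control tumors Hnf4a lay below Foxa2 and within the range of Foxa3. In the Sora-treated tumors Hnf4a lay above Foxa3 and Cebpa and overlapped Foxa2.

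**Figure D3:**
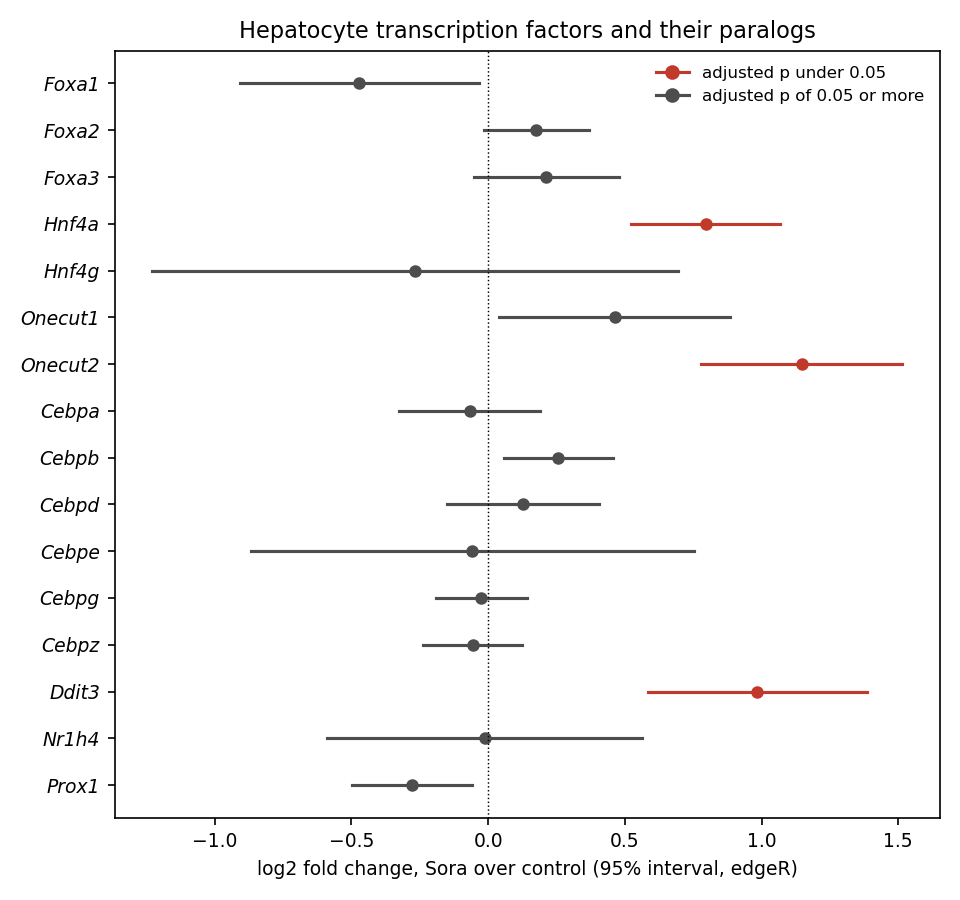
Log2 fold change of the FPKM table's hepatocyte transcription factors and their paralogs (x axis, Sora-treated over control tumors, edgeR on counts), with lines for the 95% interval. Red marks an adjusted p under 0.05 over all genes tested. Hnf4a (0.80), Onecut2 (1.15), and Ddit3 (0.98) pass, and the widest intervals belong to the scarce genes Hnf4g and Cebpe.

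Beyond the members, 31 partner transcription factors of the hepatocyte were listed, of which 29 were tested. Of these, 2 rose (Onecut2 and Gata4), 0 fell, and 27 did not pass in edgeR, and the median log2 fold change was -0.05, beside about 0 over all genes. DESeq2 called 3 higher, with Bcl6 added (log2 fold change 0.38, adjusted p = 0.016), and 2 lower, Zhx2 (-0.31, adjusted p = 0.041) and Nr1h3 (-0.41, adjusted p = 0.044). Bcl6 and Zhx2 are repressors, and Nr1h3 encodes the oxysterol receptor LXRα. Gata4, a zinc finger factor that binds liver enhancers together with FOXA proteins, was at 3.16, 3.20, and 3.49 FPKM in control tumors 1, 3, and 4. In Sora-treated tumors 2, 3, and 4 it was at 4.59, 4.37, and 4.49 FPKM, with no overlap (log2 fold change 0.46, SE 0.10, edgeR adjusted p = 0.040). This call was lost without control tumor 1, 3, or 4 (0.12, 0.090, and 0.074) and without Sora-treated tumor 2 or 4 (0.13 and 0.16), while the log2 fold change stayed at 0.42 to 0.50. In 9 of the 31, the level was under 1 FPKM in every tumor, among them Nr0b2 (SHP) and Nr1i2 (PXR), which the adult liver expresses strongly, and Ppara.

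Of 10 tested factors of the hepatic progenitor and bile duct, 2 rose (Sox9 and Onecut2) and 0 fell in edgeR and in DESeq2, where 4 were higher and 0 lower at an unadjusted p under 0.05 in edgeR, with a median log2 fold change of 0.09. Sox9, a marker of the bile duct and of progenitor cells, was at 18.4, 18.0, and 21.1 FPKM in control tumors 1, 3, and 4. It was at 29.8, 26.2, and 38.3 FPKM in Sora-treated tumors 2, 3, and 4, with no overlap (log2 fold change 0.73, SE 0.14, edgeR adjusted p = 0.021). The adjusted p was 0.067, 0.054, and 0.054 without control tumor 1, 3, or 4 and 0.074 without Sora-treated tumor 4, with log2 fold changes of 0.54 to 0.85. Of 13 coregulators, which these factors recruit, 0 passed in edgeR or DESeq2, while 1 was higher and 1 lower at an unadjusted p under 0.05. The corepressor Ncor1 and the chromatin remodeler Smarca4, which had the most reads, had log2 fold changes of -0.11 and 0.01. Hdac3, the deacetylase of the corepressor complex and the most abundant coregulator per length, was at 37.5 ± 1.40 and 42.8 ± 1.66 FPKM (SD, n = 3 each), with no overlap and an edgeR adjusted p of 0.16.

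Target genes of the members were taken from general knowledge, 72 in all, of which 67 had rows and 42 were tested. In 31 of the 67 the level was under 1 FPKM in every tumor, including G6pc and F13b, which were listed at 0 throughout, and the bile acid enzymes Cyp7a1 and Cyp8b1. Of the 42 tested, 4 rose, 5 fell, and 33 did not pass.

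Of 23 tested target genes of HNF4A, 1 rose (Apoa1) and 2 fell (Ttr and Anpep) in edgeR, with a median log2 fold change of -0.20. DESeq2 called 2 higher, Apob (log2 fold change 0.59, adjusted p = 0.0014) and Rbp4 (0.32, adjusted p = 0.019), but not Apoa1 (adjusted p = 0.063), and 3 lower, with Dpp4 added (-0.47, adjusted p = 0.039). Apob encodes the protein of very low density lipoprotein, Rbp4 the carrier of retinol, and Dpp4 a membrane peptidase. Apoa1, the main protein of HDL, was at 22.0, 20.6, and 24.9 FPKM in control tumors 1, 3, and 4 and at 43.3, 27.7, and 65.1 FPKM in Sora-treated tumors 2, 3, and 4 (log2 fold change 1.03, SE 0.24, edgeR adjusted p = 0.047). This call was lost without any control tumor (0.13, 0.11, and 0.11 without tumor 1, 3, or 4) and without Sora-treated tumor 2 or 4 (0.10 and 0.15), with log2 fold changes of 0.65 to 1.29. Ttr, the carrier of thyroid hormone, was at 5.71 to 8.76 FPKM in control tumors and 1.42 to 1.89 FPKM in Sora-treated tumors, and its call held without any single tumor. Its log2 fold change was -2.15 (SE 0.21, edgeR adjusted p = 0.0055), opposite in direction to that of Hnf4a.

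Anpep, a membrane aminopeptidase of hepatocytes and of myeloid cells, was at 35.1 ± 2.82 and 25.1 ± 3.05 FPKM (SD, n = 3 each, log2 fold change -0.47, edgeR adjusted p = 0.033). The groups did not overlap. Its adjusted p was 0.073, 0.087, and 0.059 without control tumor 1, 3, or 4, and 0.12 and 0.15 when Sora-treated tumor 2 or 4 was left out, with log2 fold changes of -0.56 to -0.39. The summed FPKM of 9 macrophage and monocyte markers, all above 0, was 935 to 1123 in control tumors and 776 to 938 in Sora-treated tumors. All 9 had a log2 fold change below 0, with a median of -0.32. In edgeR 0 passed, with 6 lower at an unadjusted p under 0.05, and DESeq2 called 5 lower. The part of these cells in the level of Anpep was not tested.

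Of 7 tested target genes of the FOXA factors, 1 rose (Igfbp1) and 2 fell (Alb and Ttr) in edgeR and in DESeq2, with a median log2 fold change of -0.09. Igfbp1, a secreted binder of insulin-like growth factors, was at 516, 710, and 651 FPKM in control tumors 1, 3, and 4 and at 906, 1008, and 1096 FPKM in Sora-treated tumors 2, 3, and 4. The groups were separate (log2 fold change 0.69, SE 0.13, edgeR adjusted p = 0.023). The adjusted p was 0.062 without control tumor 1, 0.074 without control tumor 4, and 0.12 without Sora-treated tumor 4, with log2 fold changes of 0.55 to 0.81. Alb, serum albumin, was at 1321, 1663, and 1680 FPKM in control tumors 1, 3, and 4 and at 974, 1198, and 1003 FPKM in Sora-treated tumors 2, 3, and 4 (log2 fold change -0.55, SE 0.12, edgeR adjusted p = 0.041). It was lower in every treated tumor than in any control tumor, and the adjusted p was 0.094 without control tumor 3, 0.13 without control tumor 4, 0.18 when Sora-treated tumor 2 was left out, and 0.17 when tumor 4 was, with log2 fold changes of -0.67 to -0.48.

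Of 12 tested target genes of C/EBPα, 2 rose (Hp and Gadd45a) and 2 fell (Ass1 and Alb) in edgeR, with a median log2 fold change of 0.25. DESeq2 also called Csf3r, the receptor for G-CSF on neutrophils, higher (0.50, adjusted p = 0.0069). The list holds Cidec (0.73) and Adipoq (0.63), genes of adipocytes that did not pass the test. The summed FPKM of 8 adipocyte markers, which include these 2 genes, all above 0 and with Lep under 1 FPKM throughout, was 68.6 to 102 in control tumors and 83.1 to 130 in Sora-treated tumors. All 7 of those tested had a log2 fold change above 0, with a median of 0.67. In edgeR 0 passed, with 4 higher at an unadjusted p under 0.05, and DESeq2 called 2 higher. The part of adipocytes in the median of the target genes was not tested. Hp, the hemoglobin-binding haptoglobin, was at 30.0 ± 6.76 and 50.3 ± 6.995 FPKM (SD, n = 3 each, log2 fold change 0.76, edgeR adjusted p = 0.021). Gadd45a, a gene of growth arrest, was at 11.5 ± 0.837 and 17.6 ± 2.25 FPKM (SD, n = 3 each, log2 fold change 0.63, edgeR adjusted p = 0.026). Ass1, the urea cycle enzyme that joins citrulline and aspartate, was at 104 ± 25.1 and 59.3 ± 5.78 FPKM (SD, n = 3 each, log2 fold change -0.81, edgeR adjusted p = 0.021). In all 3 genes the groups did not overlap.

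Each of these calls was lost in some of the fits that left out 1 tumor, while the directions held. The log2 fold change was 0.60 to 0.89 for Hp, 0.50 to 0.72 for Gadd45a, and -0.93 to -0.57 for Ass1. The adjusted p of Hp was 0.054 without control tumor 1, 0.069 when Sora-treated tumor 2 was left out, and 0.070 when tumor 4 was. That of Gadd45a was 0.084 and 0.088 without control tumor 1 or 4 and 0.063 and 0.12 without Sora-treated tumor 2 or 4. That of Ass1 was 0.074 when Sora-treated tumor 2 was left out and 0.12 when tumor 4 was. Neutrophils also hold Hp transcripts. The summed FPKM of 10 markers of neutrophils and immature granulocytes was 59.9 to 86.7 in control tumors and 107 to 180 in Sora-treated tumors, with 6 of the 10 above 0 in every tumor. Of the 6 markers tested, 1 passed in edgeR (S100a9, adjusted p = 0.042), with an adjusted p of 0.14 without Sora-treated tumor 4. DESeq2 did not call S100a9 (adjusted p = 0.053) and called 1 other higher (Csf3r). In edgeR, 4 were higher and 0 lower at an unadjusted p under 0.05. Ly6g, which defines neutrophils, and Mpo and Elane, which define immature granulocytes, were under 1 FPKM throughout. Ngp was at 0.165, 3.05, and 0.0238 FPKM in control tumors 1, 3, and 4. In Sora-treated tumors 2, 3, and 4 it was at 1.16, 0.259, and 0 FPKM. Its mean was 1.08 FPKM in control tumors, carried by control tumor 3, and 0.474 FPKM in Sora-treated tumors. The part of these cells in the level of Hp was not tested.

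Of 9 tested target genes of FXR, 0 rose and 1 fell (Klb) in edgeR, with 2 higher and 1 lower at an unadjusted p under 0.05 and a median log2 fold change of -0.01. DESeq2 called Klb lower and Sdc1, a heparan sulfate proteoglycan, higher (log2 fold change 0.38, adjusted p = 0.0047). Klb, the coreceptor for FGF15 that relays the bile acid signal from the gut, was scarce, with 7 to 66 reads in a tumor. Its level was 0.263 ± 0.0599 FPKM (SD, n = 3) in control tumors and 0.0675 ± 0.0285 FPKM (SD, n = 3) in Sora-treated tumors (log2 fold change -1.93, SE 0.41, edgeR adjusted p = 0.033). The groups did not overlap. The call was lost without control tumor 1, 3, or 4 (0.097, 0.053, and 0.074) and without Sora-treated tumor 2 or 4 (0.11 and 0.12), with log2 fold changes of -2.16 to -1.62. Its partner receptor Fgfr4 was at 6.80 ± 0.883 and 6.73 ± 0.401 FPKM (SD, n = 3 each).

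**Figure D4:**
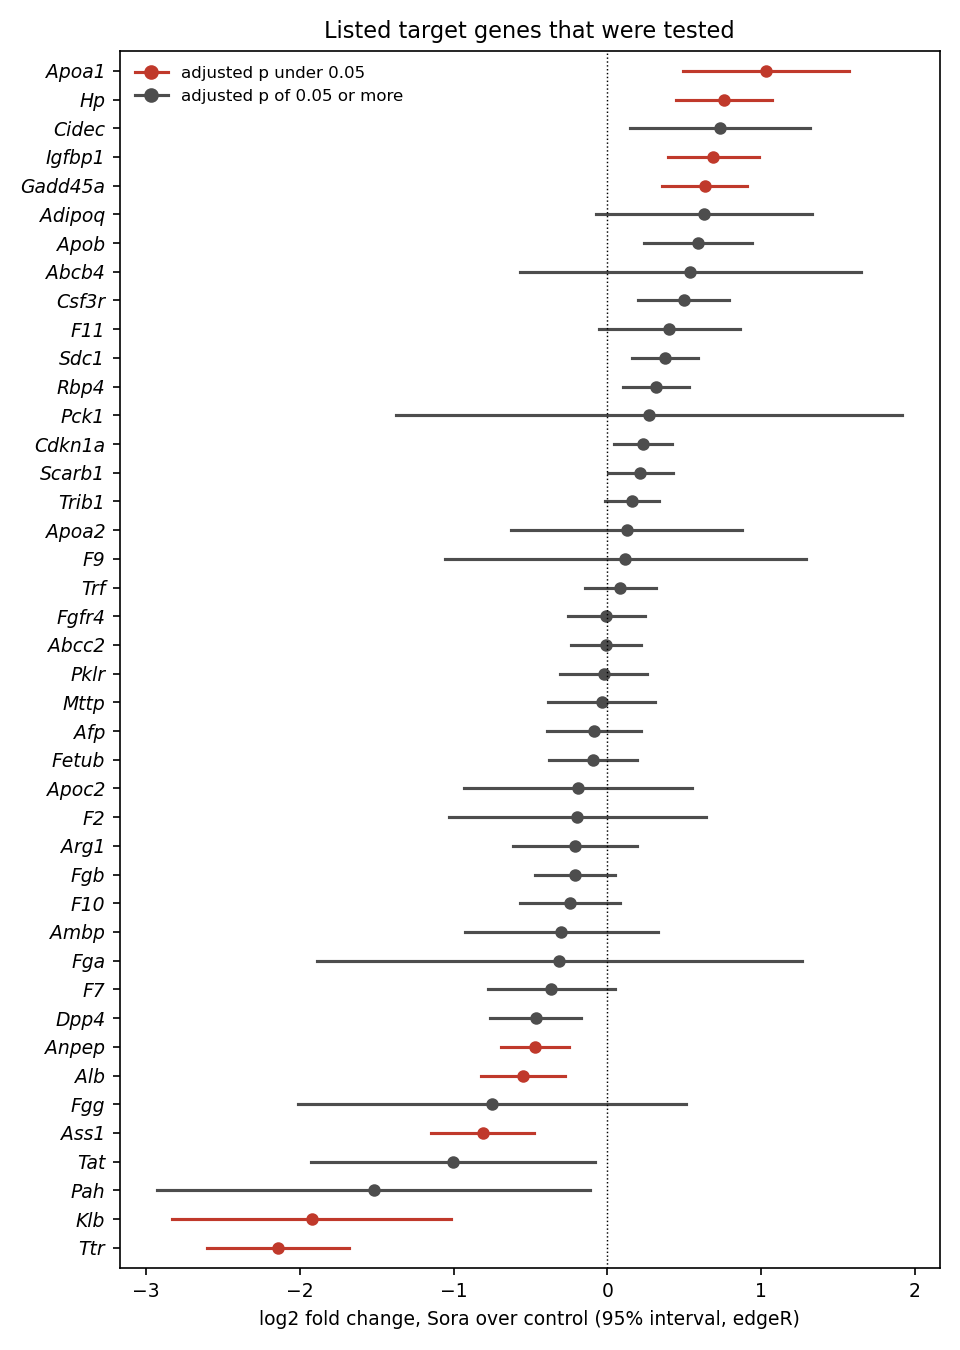
Log2 fold change of the 42 tested target genes of HNF4A, FXR, FOXA factors, and C/EBPα (x axis, Sora-treated over control tumors, edgeR on counts), sorted by value, with lines for the 95% interval. Red marks an adjusted p under 0.05. The 4 genes that rose (Apoa1, Hp, Igfbp1, and Gadd45a) lie between 0.63 and 1.03, and the 5 that fell reach -2.15 (Ttr).

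Of the 9 called target genes, 7 had a window of 250 bases before their start in the sequences used here. The 3 windows that held a match to a motif searched are shown, with matches in capitals (RefSeq, GRCm38.p6, 5′ to 3′ on the strand of the gene).
Apoa1 (chr9:46228380-46228629, plus strand): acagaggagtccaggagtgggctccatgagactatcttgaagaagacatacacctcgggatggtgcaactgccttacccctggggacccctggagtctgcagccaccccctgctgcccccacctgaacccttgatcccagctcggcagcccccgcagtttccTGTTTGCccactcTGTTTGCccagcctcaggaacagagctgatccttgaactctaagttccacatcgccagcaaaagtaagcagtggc
Alb (chr5:90460620-90460869, plus strand): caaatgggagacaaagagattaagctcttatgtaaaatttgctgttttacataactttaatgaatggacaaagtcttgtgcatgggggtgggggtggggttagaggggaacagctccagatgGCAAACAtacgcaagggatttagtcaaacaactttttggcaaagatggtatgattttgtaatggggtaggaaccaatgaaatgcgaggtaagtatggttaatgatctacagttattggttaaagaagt
Anpep (chr7:79848211-79848460, minus strand): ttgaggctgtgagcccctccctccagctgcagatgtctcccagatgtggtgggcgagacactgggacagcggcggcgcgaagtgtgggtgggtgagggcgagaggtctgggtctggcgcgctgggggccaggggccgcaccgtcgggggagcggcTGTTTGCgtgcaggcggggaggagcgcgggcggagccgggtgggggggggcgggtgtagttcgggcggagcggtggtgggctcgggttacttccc
The Apoa1 window held the FOXA core TGTTTGC at 88 and again at 75 bases before the start. The Alb window held its reverse strand GCAAACA at 128 bases before the start, and the Anpep window held TGTTTGC at 95 bases. The windows of Igfbp1, Gadd45a, Ass1, and Klb held no match. A FOXA core was thus found in 1 of the 3 searched genes that rose and in 2 of the 4 that fell.

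The motifs were searched on both strands. The FOXA core (TGTTTAC or TGTTTGC) was found in 7.29% of 32851 windows of this length and the HNF4 letters (CAAAGTCCA or CAAAGGTCA) in 0.807%. The C/EBP letters (TTGCGCAA, TTGCGTAA, or TTGCACAA) were found in 1.21% and the GATA letters (AGATAAG or TGATAAG) in 4.68%. None of the 7 target windows held the HNF4, ONECUT, C/EBP, or GATA letters, which says only that these letters are absent from these windows. Among the members, a FOXA core lay 141 bases before a start of Foxa1 inside the gene and 120 bases before a start of Prox1, and an ONECUT core lay 213 bases before a start of Foxa2.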

How the data were processed

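The authors deposited counts (unnormalized reads per gene) and FPKM, those counts divided by gene length and total count. The methods of the study name Bowtie2 and GRCm38, whereas the submitters' processing notes name fastp, HISAT2, HTSeq, DESeq2, R 3.2.0, and GRCm39. Annotation and use of strand are not given in the sources used here. The count table used here holds 5 tumors. The counts of Sora-treated tumor 4 (total 34120168) were recovered from its FPKM, and 100% of 20951 genes came within 0.001 of a whole number. The plan allowed a tumor without a count column to enter with whole counts recovered from its FPKM, where this could be checked.

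Genes with 10 or more reads in 3 or more tumors were tested with edgeR 4.0.16 (quasi-likelihood test, TMM scaling, no covariates, Benjamini-Hochberg adjustment over all 16513 genes) in R 4.3.3. The SE is the absolute log2 fold change divided by the square root of F. Ratios were compared by exact two-sided permutation tests over the 20 labelings. Alternatives were DESeq2 1.42.0, other scalings and filters, limma 3.58.1 on log2(FPKM + 1) or log2(FPKM + 0.1), a block for the tumor number, and leaving out each tumor. The ratios of Hnf4a to Krt18, Afp, and Foxa2 were added after the values were seen. Scripts were tested on simulated data.

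The members and lists were chosen with earlier results of these data known. Named genes are the members, their paralogs, list genes with an adjusted p under 0.05, the 2 genes with the highest CPM in a list with none, and the 3 genes most like Hnf4a. Some list genes and their ratios are not reported here and were left out of the lists. Other list genes, such as those at 0 and Hdac3, or called in DESeq2 alone, were named as examples after their values were seen. Coordinates and promoter sequences are those of RefSeq (GRCm38.p6), matched by symbol for all 8 members.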

Additional observations from a re-analysis of the deposited data

How the results depend on the processing

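Hnf4a stayed higher in Sora-treated tumors in all 16 settings tried and passed in 12 of them, and no other member passed in any setting in which it was fitted (14 for Foxa1, which was under the FPKM filter in the others, and 16 for the rest). Over the fits that left out 1 tumor, the log2 fold change was 0.70 to 0.93 for Hnf4a, -0.20 to 0.063 for Cebpa, -0.28 to 0.18 for Nr1h4, -0.62 to -0.32 for Foxa1, 0.12 to 0.24 for Foxa2, 0.10 to 0.29 for Foxa3, 0.31 to 0.57 for Onecut1, and -0.35 to -0.21 for Prox1. The number of members called higher was 0 to 1, and the calls among all genes were 4 to 574 higher and 1 to 571 lower. The difference in share was -2.04 to 0.969 percentage points for Foxa2 and -0.160 to 3.08 for Foxa3. With CPM in place of FPKM, the Foxa2 share differed by 0.678 percentage points instead of -0.0818. Calls among all genes, 321 higher and 222 lower, were 619 and 575 in DESeq2, 570 and 577 with no filter, 180 and 106 on log2(FPKM + 1), and 166 and 86 on log2(FPKM + 0.1). On log2(FPKM + 1) with no filter, limma called 0 genes in each direction, and so 0 members, with 1588 higher and 1527 lower at an unadjusted p under 0.05. There the log2 fold change of Hnf4a was 0.74 (adjusted p = 0.14). The cause of these shifts was not tested.

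The labels do not say whether tumors with the same number in both groups were paired. Deviations from the group means of same-numbered tumors correlated at -0.064 and -0.066, within the range for differently numbered tumors (-0.114 to 0.195). These deviations sum to 0 within each group, so the correlations cannot show whether the tumors were paired. A block for the number leaves control tumor 1 and Sora-treated tumor 2 each alone in its block. The difference then rests on tumors 3 and 4 of each group, with little left to measure spread. In that fit, 80 genes were called higher and 45 lower, and 0 members were called. The log2 fold change of Hnf4a was 0.66 (edgeR adjusted p = 0.079), and that of Cebpa was 0.068. With 3 tumors a group and a biological coefficient of variation of 0.132, small changes of the scarce members could have been missed.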
